A study of Xenopus laevis with 12 samples.

Results

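The comparison described here is between untreated whole embryos of *Xenopus laevis* raised in large and in small groups, and it uses 6 of the 12 libraries of the series. Of these, 3 are from untreated large groups (300 embryos by the study's text) and 3 from untreated small groups (100 embryos). Each library carries a letter, A, B or C, that 1 large and 1 small group share, so that the 6 libraries form 3 pairs. All were wild type, were collected at stage 25 as pools of 15 embryos, and stood in 0.1x MMR, a dilute salt solution, at 18°C over the period in which the other 6 libraries of the series were exposed to 90 µM thioridazine. A library is therefore an average over pooled animals and over all tissues, and in such bulk samples fewer cells of a type and less RNA per cell cannot be told apart. The study describes its experiments as independent repeats spread over weeks, and the embryos of an experiment as siblings in one place and as offspring of several mothers in another. What a letter stands for is not stated for these libraries, and a p-value then measures only how far these libraries scatter, which may be technical. The question is which genes and tissue programs differ with the number of embryos reared together when no teratogen is present, and whether the 3 pairs do so alike.

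At stage 25 the frog embryo is an early tailbud. The neural tube has closed, the brain and eye vesicles are being divided into regions, and neural crest cells are moving into the head, while the gut, liver and pancreas are still a mass of yolky endoderm. The early endoderm is specified by Sox17 under the maternal factor VegT, and the ventral and posterior mesoderm by the Ventx and Cdx factors, whose transcripts decline as tissues differentiate. Primordial germ cells travel within the endoderm and carry germ plasm, a store of maternal RNA that includes nanos1, dazl, pgat and grip2. The genome is allotetraploid, and many genes exist as 2 homeologs, named .L and .S. Their sequences are similar enough for reads to fit both, so that the split of counts within a pair of homeologs is uncertain.

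The total expected count lay between 5496905 and 7222013 in the libraries of the groups of 300 and between 3550845 and 6540861 in those of the groups of 100. The depth of a pair was nearly equal in letter A, where the 300-embryo library had 1.1 times the total of the 100-embryo library, and unequal in letters B (1.89 times) and C (1.48 times). A pair of transcripts, nemf.L and ccdc50.L_1, took 1.68 to 2.22% of the total in the groups of 300 and 2.08, 3.94 and 4.76% in letters A, B and C of the groups of 100. The libraries of letter A also stood apart in level from those of B and C at both group sizes. The collagen gene col1a1.S was at 57.6 CPM (its count scaled to the library total) in the 300-embryo library of letter A and 28.5 CPM in its 100-embryo library, and at no more than 1.81 CPM in any library of letters B and C. For this reason each result is given by letter.

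No gene passed the test of group size. Of 21731 genes with at least 1.8 CPM in at least 3 of the 12 libraries, 0 (0%) had an adjusted p under 0.05 in edgeR's quasi-likelihood test with the letter as a block, and the smallest adjusted p was 0.414. Without adjustment, 1064 genes (4.9%) were lower and 585 (2.69%) higher in groups of 300 at p under 0.05. Without the block 0 genes passed as well, and 383 had an unadjusted p under 0.05. Other tools with the same block gave small counts: limma voom called 1 gene, pck1.L, and DESeq2 called 33, each of them lower at 300 embryos. Of the 33, out of 21731 genes, 10 belonged to the 57 genes of the endoderm list, among them both copies of sox17a, sox17b.1 and foxa4. A fit without a filter called 34 genes over all genes with a nonzero count, 2 higher and 32 lower. Of these, 10 belonged to that list, which then held 84 genes. By contrast limma voom with the block, DESeq2 without it and a fit of the untreated libraries alone called 0 of its members.

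The pairs did not move together. Over the 21731 genes, the log2 difference between 300 and 100 embryos had a Pearson r of 0.394 between letters B and C, -0.202 between A and B and -0.0763 between A and C, given as a description, since genes are not independent. Letters B and C had the same sign at 67.4% of genes, A and B at 37.7% and A and C at 43.7%. The standard deviation of the difference was 0.47 in letter A, 0.58 in B and 0.65 in C, and 3.61, 7.12 and 10.2% of genes differed by over 2-fold. A difference above 0 in all 3 letters was found for 2669 genes (12.3%) and one below 0 in all 3 for 2639 (12.1%), whereas 4757 genes (21.9%) were above 0 in B and C and below 0 in A, and 4564 (21%) the reverse.

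A fit that gave each untreated library of 300 embryos its own size difference was used to ask whether that difference varied among the letters. Its test (edgeR's quasi-likelihood test, 2 degrees of freedom) called 1 gene (0.0046%) of 21731. The test does not model a departure of a 100-embryo library in 1 letter, so it cannot decide whether the pairs differ. The gene called was LOC121392965, which has no symbol. It was at 0.662, 51.8 and 35.1 CPM in groups of 300 (letters A, B and C), against 32.2, 48.6 and 116 CPM in groups of 100. The low library was that of 300 embryos in letter A (adjusted p = 0.0198 by edgeR's quasi-likelihood test). Without adjustment, at p under 0.05, 578 genes (2.66%) had a higher difference in letter A than the mean of B and C, and 360 (1.66%) a lower one. Removing the 4 libraries of letter A, treated ones included, gave 1000 genes past the adjusted threshold, 463 higher and 537 lower in groups of 300. The count of calls in the fit with the letter as a block thus depended on the libraries of letter A. In the fit of all 12 libraries with a size difference for each letter, the mean of B and C gave 0 calls. An unadjusted p under 0.05 was found there for 2168 genes (edgeR's quasi-likelihood test). This mean is not measured from the 100-embryo libraries of B and C alone, so its count cannot be set against the 1000. In the fit by letter each size difference sets 1 library of 300 embryos against a level fitted for untreated groups of 100. That level is made from group and letter effects shared with the treated libraries. It is therefore not the letter's own 100-embryo library. The spread of this fit is taken from other libraries, treated ones included, and does not measure scatter among untreated groups of 300.

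**Figure D1:**
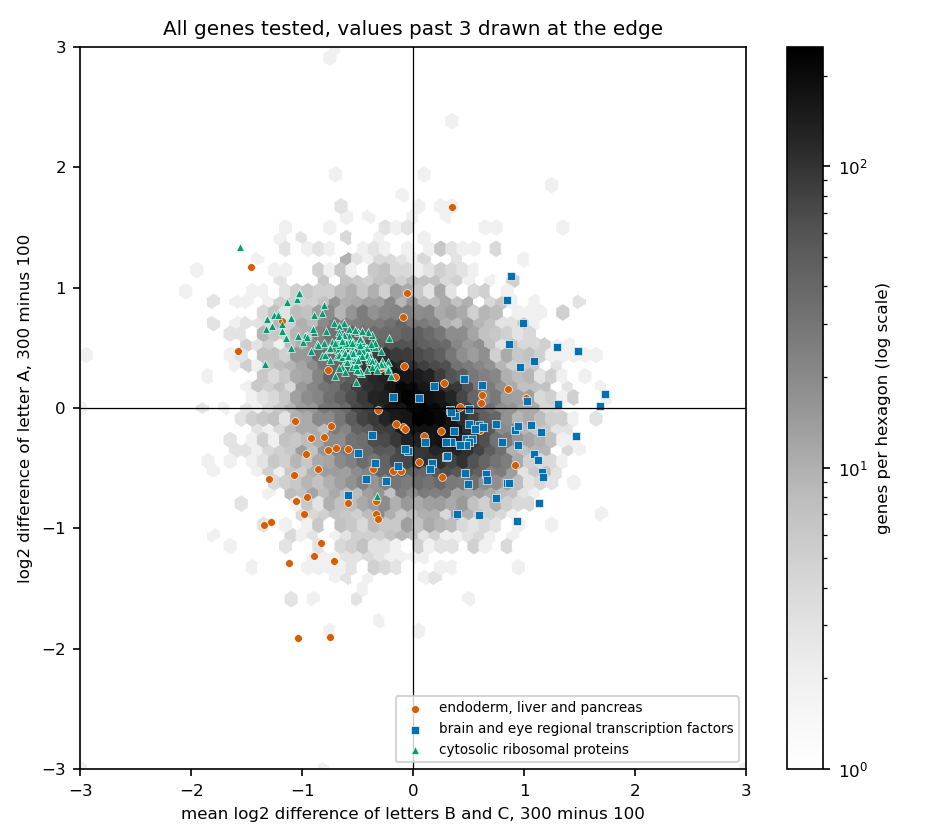
Log2 difference (groups of 300 minus groups of 100) of each gene in letter A, on the y axis, against its mean in letters B and C, on the x axis, with grey hexagons for the number of the 21731 genes and coloured points for members of 3 programs. Endoderm genes gather at the lower left, where all letters are below 0, ribosomal protein genes at the upper left and brain and eye factors mostly at the lower right.

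To ask which tissues these genes belong to, 38 gene lists were read by letter: 24 of tissues and cell types, 2 of developmental stage and 12 of cellular processes. For each list and letter the median log2 difference of its members was taken relative to the median of all genes tested, which was 0.007, 0.011 and 0. A list lay alike when it was at least 0.1 from 0 on 1 side in every letter, and it flipped when B and C were at least 0.1 on 1 side and A at least 0.1 on the other. These are descriptions of medians and carry no test. Of the 24 tissue programs, 2 lay lower in groups of 300 in all 3 letters (endoderm, liver and pancreas, and germ cells) and 0 lay higher. In 7 the sign flipped in letter A, and 15 did neither. Among the other 14 lists, 3 lay alike and 3 flipped. Just past the limit lay the dermomyotome and sclerotome, counted as flipped with 0.12 in letter B, and heat shock proteins, counted as alike with 0.12 in letter C. Just short of it lay differentiating neurons (0.09 in letter A), the endothelium (0.09 in letter C) and the unfolded protein and integrated stress response, which at 0.14, -0.17 and -0.10 missed a flip in the third decimal of letter C.

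**Figure D2:**
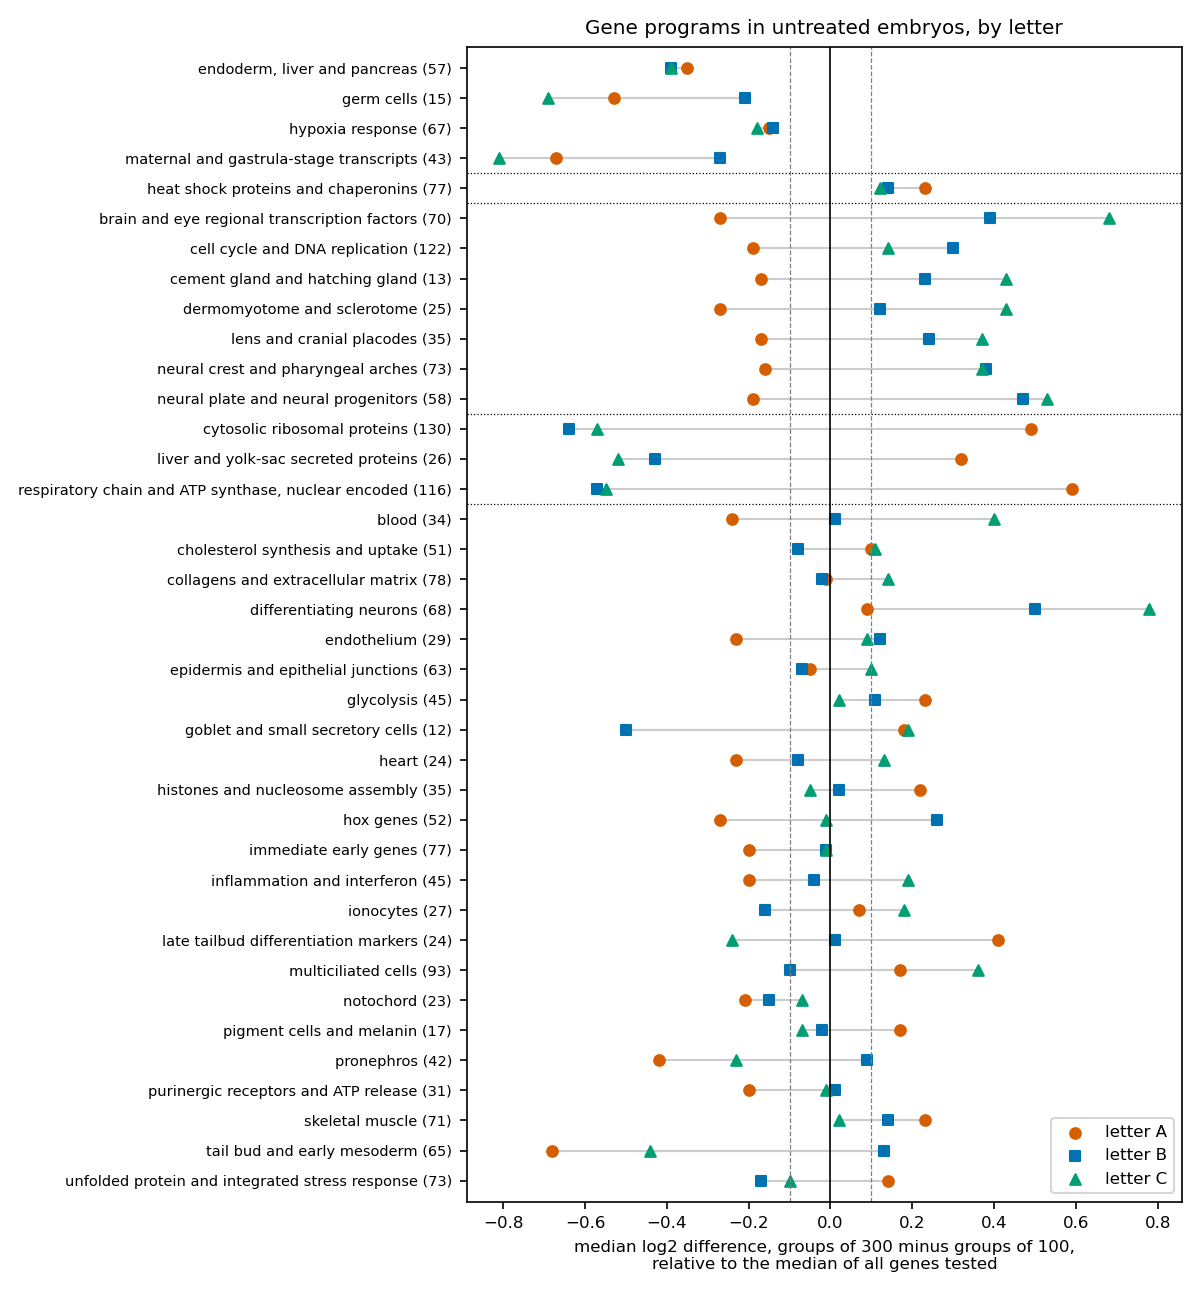
Median log2 difference (groups of 300 minus groups of 100, relative to the median of all genes tested) of 38 gene programs, with 1 symbol per letter and the number of genes tested in brackets. From the top, dotted lines separate the 4 programs lower in all letters, the 1 higher in all, the 7 with A lower and B and C higher, the 3 with A higher and B and C lower, and the rest, and dashed lines mark 0.1 on either side of 0.

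Endoderm genes were lower in the large groups in every pair. The list of 57 genes had medians of -0.35, -0.39 and -0.39 in letters A, B and C. Of its members 31 (54.4%, against 12.1% of all genes) were lower in all 3 letters and 6 (10.5%, against 12.3%) were higher in all 3. An unadjusted p under 0.05 was found for 28 members lower (49.1%, against 4.9% of all genes) and 3 higher (5.26%, against 2.69%), and for 11 the 3 values at 300 embryos all lay below the 3 at 100, an arrangement found for 3.06% of all genes (666). The opposite arrangement, found for 2.15% of all genes (468), occurred for 0 members. In 12 of the 20 pairs of homeologs in the list both copies were lower in all 3 letters. The share over all pairs of homeologs was not computed, and since reads can fit both copies, the copies of a pair are not separate observations.

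sox17a.S, a transcription factor that specifies early endoderm, was at 28.9, 40.9 and 56.6 CPM in groups of 300 (letters A, B and C), against 53.6, 77.5 and 118 CPM in groups of 100. Within each letter the larger group was lower by a similar factor, while the groups overlapped because the level differed between letters. Its fitted log2 change, 300 over 100 embryos with the letter as a block, was -0.96 ± 0.18 (here and below ± is the standard error of the fit; unadjusted p = 7.51e-05 by edgeR's quasi-likelihood test). Its homeolog sox17a.L was at 13.8, 36.1 and 46.2 CPM at 300 embryos and 34.2, 67.3 and 117 CPM at 100 (fitted log2 change -1.17 ± 0.24), and sox17b.1.S, a second gene of the family, at 8.74, 20.8 and 20.2 CPM against 17.3, 37.3 and 68.3 CPM (-1.21 ± 0.26). These 3 genes were lower in 3 of 3 pairs.

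frzb.L, a secreted Wnt antagonist, was at 9.27, 12.3 and 8.56 CPM in groups of 300, against 22.2, 16.5 and 22.9 CPM in groups of 100, with no overlap (fitted log2 change -1.02 ± 0.21). The forkhead factor foxa4.S, expressed in dorsal endoderm and notochord, was at 14.8, 14.6 and 21.4 CPM against 25.6, 23.7 and 57.7 CPM (-1 ± 0.21), and did not overlap. gata4.S, a zinc finger factor shared by endoderm and heart, was at 7.42, 7.68 and 9.99 CPM against 10.7, 12.7 and 20.6 CPM (-0.76 ± 0.21). Members of later liver and pancreas did not follow as a group. apoa1.L, an apolipoprotein, had differences of 1.17, -1.73 and -1.19 in letters A, B and C, and hnf4a.S, a nuclear receptor of liver and gut, of 0.72, -2.37 and 0.01. onecut2.L, which is shared with neurons, had differences of 0.08, 0.66 and 1.38. Both apoa1.L and onecut2.L were chosen with their values in view.

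Germ cell genes formed the other program that was lower in all pairs, with medians of -0.53, -0.21 and -0.69 over 15 genes. Of these 8 (53.3%, against 12.1% of all genes) were lower in all 3 letters and 0 higher in all 3, and 5 (33.3%, against 3.06%) had every value at 300 embryos below those at 100. pgat.L, a germ plasm transcript, was at 28.5, 13.2 and 23.7 CPM in groups of 300, against 45.7, 60.7 and 151 CPM in groups of 100. Every library of 300 embryos lay below every library of 100, and the highest value was that of the 100-embryo library of letter C (fitted log2 change -1.86 ± 0.55, unadjusted p = 0.00842 by edgeR's quasi-likelihood test). grip2.L, whose product helps primordial germ cells migrate, was at 9.93, 6.47 and 9.10 CPM against 22.1, 16.8 and 55.4 CPM (-1.71 ± 0.46). nanos1.L, a translational repressor of germ cells, was at 3.44, 1.35 and 2.85 CPM against 4.68, 4.05 and 16.9 CPM (-1.51 ± 0.42), and ddx25.L, an RNA helicase of the germ plasm, had a fitted log2 change of -1.18 ± 0.35. Other members differed less: both copies of rtn3, tdrd1.L and tdrd6.L, chosen after their values were seen, had log2 fold changes between -0.21 and 0.10. The summed level of the 15 genes was 326, 366 and 392 CPM in groups of 300, against 380, 454 and 758 CPM in groups of 100.

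**Figure D3:**
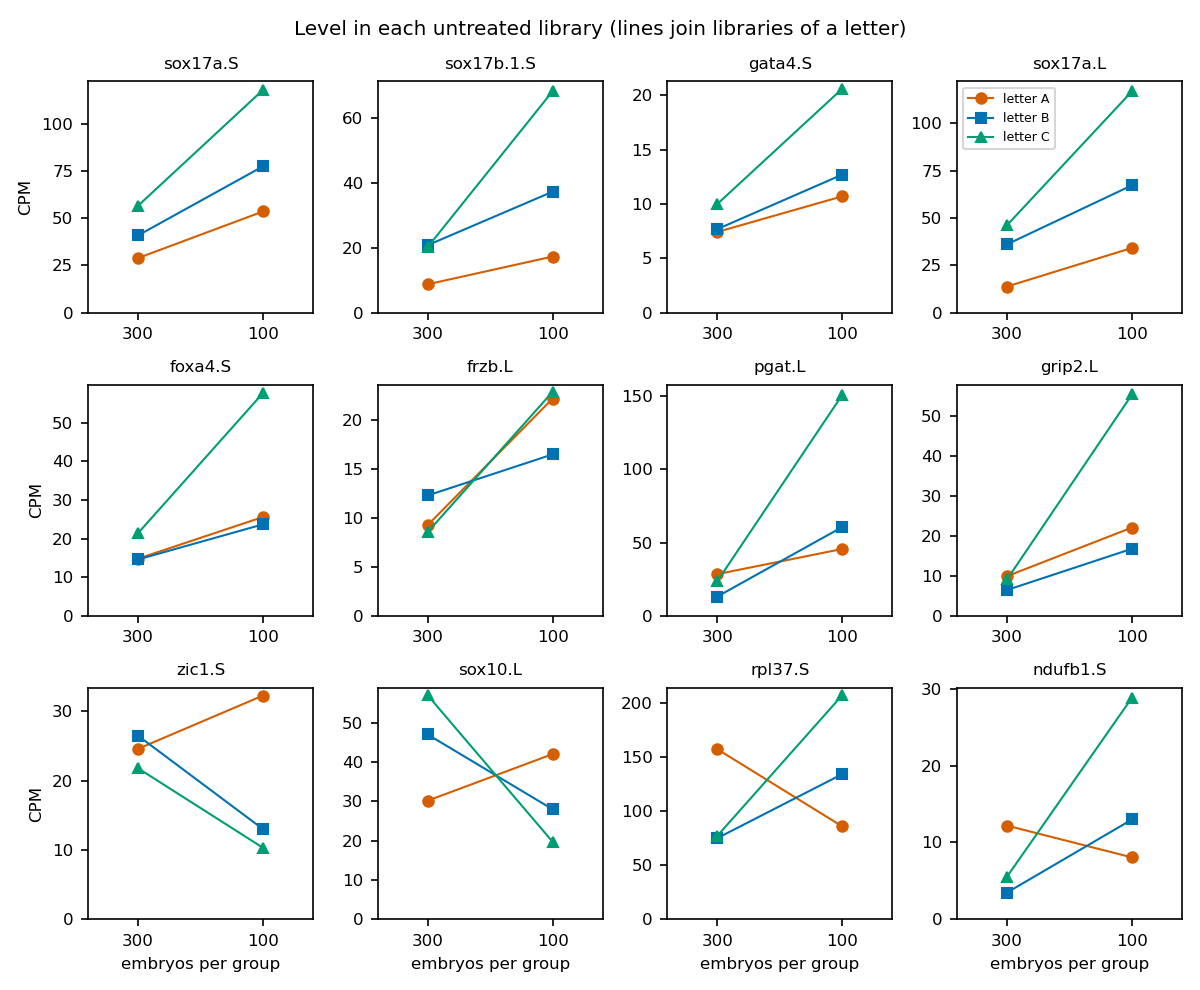
CPM of 12 genes in each untreated library, with groups of 300 embryos on the left, groups of 100 on the right and a line joining the 2 libraries of a letter. The lines of the endoderm and germ cell genes (upper 8 panels) rise to the right in all letters, whereas those of zic1.S, sox10.L, rpl37.S and ndufb1.S run the other way in letter A than in letters B and C.

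Other transcripts of the early embryo were lower too. The list of maternal and gastrula-stage transcripts (43 genes) had medians of -0.67, -0.27 and -0.81. Of its members 21 (48.8%, against 12.1% of all genes) were lower in all 3 letters and 0 (against 12.3%) higher in all 3. Relative to genes of the same span class, described below, letter B was at -0.07 and the list no longer lay alike. This list shares sox17b.1 with the endoderm list, and the ventx3.2 genes with the list of tail bud and early mesoderm. The last list was not alike: its medians were -0.68, 0.13 and -0.44 over 65 genes, of which 23 (35.4%, against 12.1% of all genes) were lower in all 3 letters and 21 (32.3%, against 4.9%) had an unadjusted p under 0.05 with a lower level, while 0 had one with a higher level. ventx3.2.S, a homeodomain factor of ventral mesoderm, was at 11.8, 9.78 and 11.4 CPM in groups of 300 and 28.4, 18.2 and 39.4 CPM in groups of 100 (fitted log2 change -1.31 ± 0.31), with no overlap. ventx1.2.S, its relative, was at 9.67, 15.2 and 19.4 CPM against 18.3, 26.9 and 40.6 CPM (-0.93 ± 0.19). cdx1.S, a factor of posterior mesoderm and gut, had a fitted log2 change of -0.94 ± 0.22. The organizer gene gsc.S, itself near the detection limit, was at 0.662, 1.35 and 0.357 CPM against 1.90, 2.89 and 3.14 CPM. Among the untreated libraries only those of 100 embryos reached the 1.8 CPM of the filter, so its direction carries no weight here. The other list of developmental stage, late tailbud differentiation markers (24 genes), did not lie alike, with medians of 0.41, 0.01 and -0.24.

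Genes of the pronephros, the larval kidney, were split in the same way. Over 42 genes the medians were -0.42, 0.09 and -0.23, but 14 genes (33.3%, against 12.1% of all genes) were lower in all 3 letters and 10 (23.8%, against 3.06%) did not overlap, with 300 below 100. slc12a1.L, a salt transporter of the distal tubule, was at 20.1, 19.1 and 29.1 CPM in groups of 300 and 38.6, 49.4 and 41.7 CPM in groups of 100 (fitted log2 change -0.95 ± 0.21). osr2.S, a transcription factor of the kidney field, was at 19.3, 18.8 and 20.3 CPM against 32.8, 30.3 and 45.4 CPM (-0.86 ± 0.22). Neither gene overlapped between the group sizes. In the heart list (24 genes, medians -0.23, -0.08 and 0.13) the 4 members with the smallest p were the copies of gata4 and gata5, which the endoderm list holds as well. The notochord list (23 genes) had medians of -0.21, -0.15 and -0.07, with foxa4 in both copies at its head (foxa4.L fitted log2 change -1.23 ± 0.28). foxa1, a forkhead factor of endoderm and of secretory cells of the skin, was lower without overlap in both copies, with foxa1.S at 50.9, 30.1 and 37.8 CPM against 60.4, 61.0 and 67.4 CPM.

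Of the cellular lists, that of heat shock proteins and chaperonins was the only one higher in groups of 300 in all letters. Its 77 genes had medians of 0.23, 0.14 and 0.12, with 31 (40.3%, against 12.3% of all genes) higher in all 3 letters and 0 lower in all 3. In size the differences were small, and with a filter at 5 CPM in 6 or more libraries letter C was at 0.09, short of the limit. stip1.L, a co-chaperone that links Hsp70 and Hsp90, was at 99.3, 103 and 119 CPM in groups of 300, against 74.3, 77.5 and 79.7 CPM in groups of 100, with no overlap (fitted log2 change 0.47 ± 0.16, unadjusted p = 0.00945 by edgeR's quasi-likelihood test). hspa4.S, an Hsp110 family member, was at 96.9, 109 and 98.3 CPM against 88.5, 76.9 and 72.6 CPM. The hypoxia list (67 genes) was lower in all letters, at -0.15, -0.14 and -0.18, with 21 genes (31.3%, against 12.1% of all genes) lower in all 3 and 6 higher in all 3, but letter B was at -0.07 with the libraries thinned to 1 total, an alternative chosen after seeing the data. ddit4.L, a stress-induced inhibitor of mTORC1 signalling, was at 159, 161 and 187 CPM in groups of 300 and 225, 250 and 351 CPM in groups of 100, and ddit4.S at 73.4, 91.2 and 98.1 CPM against 106, 155 and 166 CPM. Both had a log2 fold change of -0.68 and neither overlapped. ankrd37.S, a target of the hypoxia-inducible factor in mammals, was at 11.1, 4.97 and 10.7 CPM against 21.5, 15.0 and 18.9 CPM (-1.09 ± 0.33). Of the 6 genes higher in all 3 letters, the one with the smallest p was ldha.S, lactate dehydrogenase, at 126, 23.0 and 21.8 CPM against 87.2, 17.3 and 16 CPM (0.47 ± 0.14). The genes of this paragraph were chosen after their values were seen.

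Several ectodermal and neural programs changed sign between letters. Brain and eye regional transcription factors (70 genes) had medians of -0.27 in letter A, 0.39 in B and 0.68 in C. Only 17 of the 70 were above 0 in letter A, against 58 in B and 61 in C, and 43 (61.4%, against 21.9% of all genes) were above 0 in B and C and below 0 in A. Genes of the neural plate and neural progenitors (58) had medians of -0.19, 0.47 and 0.53, with 25 (43.1%) of that pattern. For neither list did a member pass an adjusted threshold in the test of A against the mean of B and C. Letter A was singled out with earlier results known. Here and below, a fitted difference of A from the mean of B and C comes from the fit by letter. It is not computed from the pairs of CPM printed beside it. Members given with a p-value of the test of A against the mean of B and C were picked because that p was small. Such p-values therefore describe the members and do not support the flip. olig2.L, a factor of motor neuron and oligodendrocyte progenitors, was at 7.95, 11.3 and 8.38 CPM in groups of 300 and 9.37, 6.07 and 1.71 CPM in groups of 100. Its fitted difference of A from the mean of B and C was -1.26 on the log2 scale (unadjusted p = 0.0145 by edgeR's quasi-likelihood test). zic1.S, a zinc finger factor of the neural plate border and dorsal neural tube, was at 24.6, 26.5 and 21.8 CPM against 32.3, 13 and 10.3 CPM (-0.95, unadjusted p = 0.0214 by the same test). Its level at 300 embryos varied little, and that at 100 embryos was high in letter A and low in B and C. pax8.S, of the otic placode and the midbrain-hindbrain boundary, is held by the pronephros list as well. It was at 5.3, 21.4 and 18.6 CPM against 10.1, 14.7 and 11.7 CPM. Within the progenitor list hes5.4.S, of a family of Notch targets that keep progenitors undifferentiated, ran the other way, at 8.34, 7.98 and 5.71 CPM against 4.24, 9.83 and 14.3 CPM.

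Some other neural genes kept their direction in all letters. The homeobox gene vsx1.L, of retinal bipolar cells and spinal interneurons, was at 7.42, 7.22 and 7.49 CPM in groups of 300 and 4.39, 4.34 and 2.86 CPM in groups of 100, with no overlap (fitted log2 change 0.94 ± 0.35). Differentiating neurons (68 genes) had medians of 0.09, 0.50 and 0.78, and 22 (32.4%, against 12.3% of all genes) were higher in all 3 letters. Another 21 (30.9%, against 21.9% of all genes) were above 0 in B and C and below 0 in A. In letter A 39 members were above 0 and 29 below, so the list as a whole was not of 1 direction there. nhlh1.L, a bHLH factor of newborn neurons, was at 10.5, 13.4 and 9.81 CPM against 7.90, 5.78 and 3.14 CPM (0.96 ± 0.29), and did not overlap. gap43.S, a growth cone protein, was at 15.5, 2.41 and 3.03 CPM against 7.90, 0.578 and 1.14 CPM. The groups overlapped because letter A was high at both sizes. mnx1, a motor neuron factor that is also expressed in pancreas, went against its list in both copies: mnx1.S was at 8.48, 6.77 and 8.03 CPM against 14.5, 10.7 and 15.4 CPM (-0.79 ± 0.19).

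Neural crest and pharyngeal arch genes (73) had medians of -0.16, 0.38 and 0.37, and 34 (46.6%, against 21.9% of all genes) were above 0 in B and C and below 0 in A. sox10.L, a factor of migrating crest and of pigment cell and glial precursors, was at 30.2, 47.1 and 57.1 CPM in groups of 300 and 42.1, 28.0 and 19.7 CPM in groups of 100. Letter A had the lowest value at 300 embryos and the highest at 100. The fitted difference of A from the mean of B and C was -1.12 (unadjusted p = 0.0105 by edgeR's quasi-likelihood test). sox10.S had the same pattern, at 40.9, 53.9 and 70.6 CPM against 53.1, 34.4 and 31.1 CPM. itga5.L, an integrin subunit that binds fibronectin, was at 35.4, 94.5 and 85.1 CPM against 64.2, 52.9 and 58.6 CPM (-1.09, unadjusted p = 0.0097 by the same test). By contrast tfap2b.L, an AP-2 factor of crest, was higher at 300 embryos in every letter, at 45.3, 29.7 and 36.2 CPM against 41.3, 17.1 and 14.3 CPM, by little in letter A.

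The other tissue programs that flipped in this direction were smaller. Lens and cranial placode genes (35) had medians of -0.17, 0.24 and 0.37, those of the dermomyotome and sclerotome (25), which form dermis, limb muscle and vertebrae, of -0.27, 0.12 and 0.43, and those of the cement gland and hatching gland (13) of -0.17, 0.23 and 0.43. They share members: pax3 is in all 3 lists, and pax3.S was at 22.4, 35.4 and 29.6 CPM in groups of 300 and 25.0, 16.8 and 18.3 CPM in groups of 100. gata3.S, of the non-neural ectoderm and placodes, was at 30.9, 38.1 and 40.1 CPM against 52.1, 33.5 and 31.1 CPM, with the 100-embryo library of letter A above all others. meox2.S, a homeobox factor of somites, was at 16.8, 37.2 and 20.9 CPM against 33.2, 17.6 and 20.6 CPM.

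A single tissue program flipped in the opposite direction. Liver and yolk-sac secreted proteins (26 genes) had medians of 0.32, -0.43 and -0.52, with 18 members above 0 in letter A and 9 each in B and C. With a filter at 5 CPM in 6 or more libraries the median in letter A was 0.03, and the list no longer counted as flipped. It shares members with the endoderm, liver and pancreas list, among them a2m, apoa1 and hnf4a, so these lists are not separate observations. serpinc1.L, antithrombin, was at 49.8, 16.6 and 19.4 CPM in groups of 300 and 35.9, 39.3 and 33.7 CPM in groups of 100. Its fitted difference of A from the mean of B and C was 1.02 (unadjusted p = 0.0231 by edgeR's quasi-likelihood test). Members of this list that were lower in all letters included a2m.S, the abundant protease inhibitor alpha-2-macroglobulin, at 715, 848 and 1140 CPM against 1240, 1240 and 1760 CPM. The groups of a2m.S did not overlap (fitted log2 change -0.66 ± 0.19).

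Genes of translation and respiration flipped in the same direction. Of 130 genes of cytosolic ribosomal proteins, 129 were above 0 in letter A, 0 in letter B and 0 in letter C, with medians of 0.49, -0.64 and -0.57. The single gene not above 0 in letter A was rpl35a.S, below 0 in all 3 letters. The summed level of the list was 33722, 21763 and 23592 CPM in groups of 300, against 23962, 33817 and 35742 CPM in groups of 100, so that letter A had the highest sum at 300 embryos and the lowest at 100. rpl37.S was at 157, 74.8 and 76.9 CPM against 85.6, 134 and 207 CPM. Its fitted difference of A from the mean of B and C was 1.26 (unadjusted p = 0.00607 by edgeR's quasi-likelihood test). Nuclear-encoded genes of the respiratory chain and ATP synthase (116) had medians of 0.59, -0.57 and -0.55, with 111, 5 and 12 above 0, and 97 (83.6%, against 21% of all genes) above 0 in A and below 0 in B and C. ndufb1.S, a subunit of complex I, was at 12.2, 3.46 and 5.53 CPM against 8.05, 13 and 28.9 CPM (2.17, unadjusted p = 0.000856 by the same test), and atp5pf.S, of ATP synthase, at 30.6, 14.6 and 9.81 CPM against 11.3, 26.9 and 20.9 CPM. Cell cycle and DNA replication genes (122) flipped the opposite way, at -0.19, 0.30 and 0.14. top2a.L, the topoisomerase of dividing cells, was at 163, 356 and 361 CPM in groups of 300, against 285, 185 and 160 CPM in groups of 100, and so crossed over between letter A and the other letters.

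**Figure D4:**
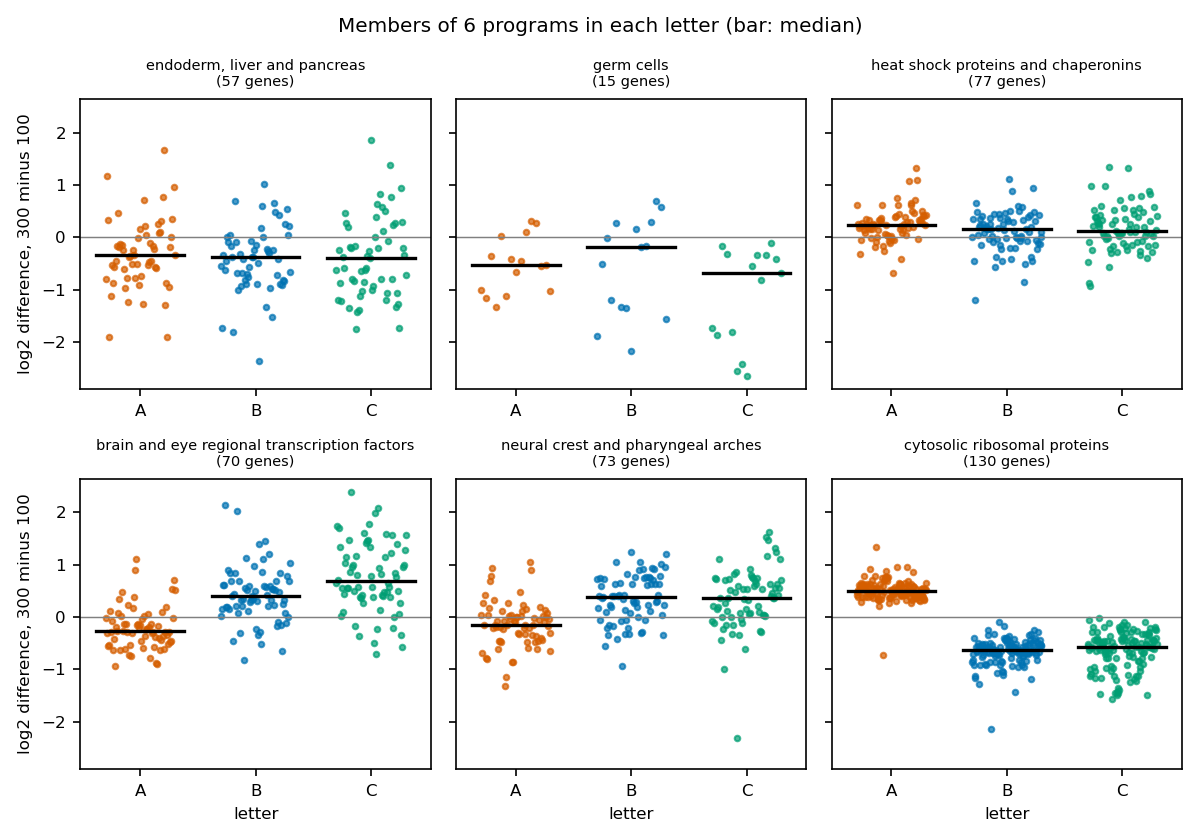
Log2 difference (groups of 300 minus groups of 100) of every tested member of 6 programs, by letter, with 1 point per gene and a bar at the median. Endoderm and germ cell medians are below 0 and heat shock medians above 0 in all letters, whereas brain and eye factors, neural crest genes and ribosomal protein genes change sides between letter A and letters B and C.

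Gene span and RNA class moved with the letters as well. Protein-coding genes were divided into 5 classes of equal number by the length of the gene in the RefSeq annotation of Xenopus_laevis_v10.1. The shortest class (median 5.33 kb) had medians of 0.10, -0.20 and -0.23 in letters A, B and C, and the longest (93.1 kb) of -0.11, 0.18 and 0.21. Small nucleolar RNAs (78 genes), which guide the modification of ribosomal RNA, had medians of -0.35, -1.53 and -1.41, and small nuclear RNAs (44), of the spliceosome, of -0.53, -1.48 and -0.89. Long non-coding RNAs (437) were at -0.03, -0.31 and -0.45. Taken relative to protein-coding genes of the same span class, an alternative chosen after seeing the data, the ribosomal protein list was at 0.40, -0.46 and -0.36 and that of the respiratory chain at 0.51, -0.40 and -0.32. On that scale the endoderm list was at -0.35, -0.37 and -0.37 and brain and eye factors, whose median span was 5.66 kb, at -0.34, 0.51 and 0.81. All 9 tissue programs that lay alike or flipped kept their class on it, and 4 more joined: differentiating neurons as higher in all letters, and hox genes, blood and endothelium as flipped. The hypoxia list (-0.17, -0.05 and -0.18) and that of maternal and gastrula-stage transcripts (-0.77, -0.07 and -0.59) did not keep theirs, since letter B came within 0.1 of 0. With the untreated libraries thinned to the total of the shallowest, also chosen after seeing the data, 8 of the 9 kept their class, and the dermomyotome and sclerotome (0.09 in letter B) did not. Any part of sequencing depth beyond this, of the share taken by nemf.L and ccdc50.L_1 or of RNA quality in the flips was not tested.

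**Figure D5:**
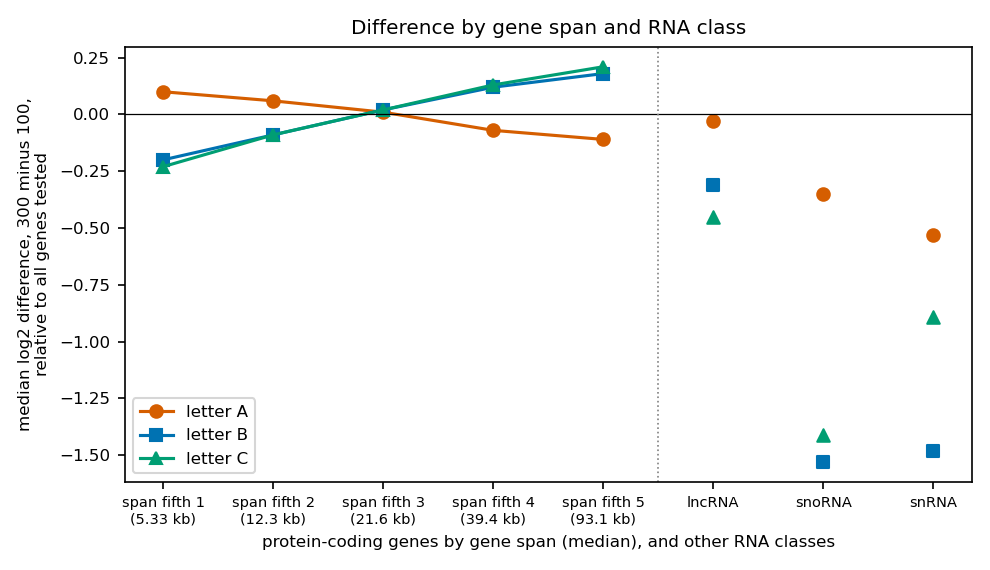
Median log2 difference (groups of 300 minus groups of 100, relative to all genes tested) of protein-coding genes in 5 classes of gene span and of 3 classes of non-coding RNA, with 1 symbol per letter. The lines of letters B and C climb with span and that of letter A declines, and small nucleolar RNAs lie lowest in letters B and C.

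The remaining tissue programs lay near 0 or differed between letters without the pattern above. Skeletal muscle genes (71) had medians of 0.23, 0.14 and 0.02. Hox genes (52), which pattern the head-to-tail axis, were at -0.27, 0.26 and -0.01. Multiciliated cell genes (93) were at 0.17, -0.10 and 0.36, with 21 (22.6%, against 12.3% of all genes) higher in all 3 letters. Goblet and small secretory cell genes (12) were at 0.18, -0.50 and 0.19. Collagens and extracellular matrix (78) and epidermis and epithelial junctions (63) stayed within 0.14 of 0 in every letter. Within them dsg2.S, a desmoglein of cell junctions, was at 9.80, 9.78 and 14.6 CPM in groups of 300 and 17.9, 12.7 and 26.3 CPM in groups of 100 (fitted log2 change -0.72 ± 0.18).

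Several of the single genes with the smallest p that were higher in groups of 300 were expressed mainly in letter A. pck1.L, the rate-limiting enzyme of gluconeogenesis, was at 58.5, 0.602 and 0.357 CPM in groups of 300 and 10.7, 0.289 and 0.286 CPM in groups of 100 (fitted log2 change 2.22 ± 0.42, unadjusted p = 9.31e-05 by edgeR's quasi-likelihood test). It was nearly absent from letters B and C. g6pc1.1.L, glucose-6-phosphatase, was at 9.40 CPM against 0.878 CPM in letter A and listed at 0 in all 4 libraries of B and C, and ocm4.1.L, an oncomodulin gene, at 54.0, 0.301 and 0.714 CPM against 13.2, 0.867 and 0.571 CPM. Without the 300-embryo library of letter A the log2 fold change of g6pc1.1.L was -0.21 and that of ocm4.1.L -0.11. Other genes were higher in every letter. epas1.L, which encodes the hypoxia-inducible factor HIF-2 alpha, was at 39.2, 26.2 and 22.7 CPM against 26.3, 14.5 and 14.3 CPM (0.70 ± 0.16). Its direction was opposite to that of the medians of the hypoxia list. eef2k.L, a kinase that slows translation elongation, was at 108, 42.0 and 51.7 CPM against 79.5, 21.1 and 28.6 CPM (0.72 ± 0.17). stat3.1.L, a transcription factor of cytokine signalling, did not overlap, at 44.2, 42.9 and 57.1 CPM against 32.8, 34.1 and 29.4 CPM (0.57 ± 0.16). Of genes without a symbol, LOC108700279 was at 11, 8.73 and 13 CPM against 20.5, 21.7 and 37.7 CPM and had the smallest p of all (2.62e-05, unadjusted, edgeR's quasi-likelihood test), and LOC108695959 was at 8.74, 9.78 and 5.35 CPM against 3.37, 2.60 and 1.71 CPM. The receptor gene p2rx1.L, an ATP-gated channel, was at 7.68, 5.42 and 5.53 CPM against 10.5, 3.76 and 6 CPM and overlapped.

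The pairs of thioridazine-treated libraries, which share no library with the untreated ones, were read in the same way. Their endoderm list had medians of 0.36, 0.12 and -0.42 in letters A, B and C, and their germ cell list of 0.25, 0.22 and -0.57, so that neither lay alike there. sox17a.S had a log2 fold change of -0.03 between treated groups of 300 and 100, against -0.96 between untreated ones. The ribosomal protein list was at 0.06, -0.14 and -0.33. The difference between the untreated and the treated size effect was tested by edgeR's quasi-likelihood test with the letter as a block: 0 of 21731 genes passed, with a smallest adjusted p of 0.704, and 1176 had an unadjusted p under 0.05. Therefore no gene can be called particular to untreated embryos.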

How the data were processed

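Libraries depleted of ribosomal RNA were sequenced from 1 end (75 nucleotides). After trimming, Bowtie2 alignment to ribosomal sequences and STAR alignment to the genome, the authors deposited expected counts per gene from RSEM, which shares ambiguous reads out over genes (25.7% of values were not whole). The deposited log2 CPM, made by the authors with a filter, TMM and voom, were used only as an alternative. For STAR and its genome build, as for the other tools, the version is not given in the sources used here.

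After rounding, genes with at least 1.8 CPM of the unadjusted library total in at least 3 of 12 libraries were kept (21731 of 42638). Normalization was by TMM, and edgeR 4.0.16 was used for testing in R 4.3.3 (robust quasi-likelihood, Benjamini-Hochberg adjustment, threshold 0.05). The 4 group means and the letter were fitted to all 12 libraries, which then share 1 estimate of the spread. A second fit gave each letter its own size difference. Replicate numbers in the labels, which are the letters, recur in each group, and libraries of a letter deviated together from their group means (r of 0.282 to 0.769 in 18 pairs), so they were taken as paired. A standard error is the fitted log2 change over the root of its F statistic. Differences by letter are log2 CPM with TMM factors and a prior count of 2. Scripts were tested on simulated data. No libraries were duplicates, and depth per library is given with the results.

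The comparison and the lists were chosen with earlier results of these data known, and the lists overlap. Named genes are 12 per direction by smallest p, up to 4 members of each tissue program by p, up to 4 of each flipped program by the p of A against B and C, 2 without a symbol per direction, and p2rx1, and some genes that this rule takes are not reported here. Outside this rule, and chosen with their values in view, are the genes of the heat shock and hypoxia lists, apoa1.L, onecut2.L, rtn3, tdrd1.L, tdrd6.L, rpl35a.S, nemf.L and ccdc50.L_1. The RefSeq annotation of Xenopus_laevis_v10.1 held 40077 (94%) of the identifiers as symbols and was used for names, gene spans and RNA classes only. Alternatives were other normalizations, filters and tools (DESeq2 1.42.0, limma 3.58.1, sva 3.50.0) and leaving out libraries.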

Additional observations from a re-analysis of the deposited data

Results flagged for a closer look

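LOC121392965 was the only gene called in the test among letters (edgeR's quasi-likelihood test, adjusted p = 0.0198 over 21731 genes), which models departures by letter only in groups of 300. It was at 0.662 CPM in the 300-embryo library of letter A and at 51.8 and 35.1 CPM in letters B and C of that size, against 32.2, 48.6 and 116 CPM in letters A, B and C of the groups of 100. The fitted log2 difference was -6.02 in letter A (adjusted p = 0.00554 by edgeR's quasi-likelihood test), and that of letter A from the mean of B and C was -5.41 (adjusted p = 0.0335 by edgeR's quasi-likelihood test). It rests on 1 library.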

How the results depend on the processing

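The count of genes past the threshold for group size, 0 with the replicate block, stayed at 0 with no replicate block, RLE size factors, a filter at 5 CPM in 6 or more libraries, limma voom with 2 surrogate variables and limma trend on the deposited log2 CPM. It was 33 with DESeq2 and the replicate block, 1 with limma voom and the replicate block, 34 without a filter (2 higher, 32 lower), 8 in the untreated libraries alone with the replicate block (all lower) and 1 with DESeq2 and no replicate block, an alternative chosen after seeing the data. Leaving out libraries gave 0 to 1000 genes: 1000 without the 4 libraries of letter A, 47 without the 100-embryo library of A, 1 without that of C and 0 for the other libraries. Over these exclusions g6pc1.1.L lay between -0.21 and 3.37 and ocm4.1.L between -0.53 and 1.91 on the log2 scale, below 0 when the 300-embryo library of A or all of letter A was left out. No other named gene of the size comparison reversed (378 of 426 values stayed on their side and 44 passed the threshold). For the fit by letter, with 1 gene in the test among letters, 0 in B and C, 1 in A and 1 in A against B and C, no filter gave 146, 527, 85 and 80, since genes present in a few libraries then enter. limma voom gave 0 in each of the 3 tests that had called 1, and the filter at 5 CPM gave 0 in the test among letters and in that of A against B and C. The cause was not tested. The 2 alike and 7 flipped tissue programs kept their class under RLE, a prior count of 0.5 and the deposited log2 CPM, and 8 of 9 under the filter at 5 CPM, where liver and yolk-sac secreted proteins no longer flipped. Heat shock proteins were not alike under that filter (0.25, 0.12 and 0.09), nor was the hypoxia list with thinned libraries (-0.20, -0.07 and -0.17). The unfolded protein and integrated stress response flipped under RLE, the filter at 5 CPM and thinning. With a limit of 0.2, chosen after seeing the data, 2 tissue programs flipped and both alike ones remained, whereas heat shock proteins and the hypoxia list did not lie alike. The 100-embryo libraries of letters B and C were the shallowest of the untreated ones.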
